A study of Mus musculus with 6 samples.

Results

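This account follows 46 genes of DNA replication, from the proteins that mark origins to those that join the lagging strand, in libraries labelled anti-PD-1 and control. The members were a list of gene names, taken as given, and each was represented by its row with 1 symbol and the highest mean signal. All 46 were found, among 18630 genes represented in this way. Their rows numbered 52, since 5 members had more than 1. The arrays came from 6 RNA samples, 3 labelled anti-PD-1 and 3 labelled control, with replicates numbered 1 to 3 in each. Both groups are labelled as subcutaneous tumours grown from LLC (Lewis lung carcinoma), a lung cancer line of the mouse. Per the labels' protocols, 1000000 cells in Matrigel went into the left flank of mice, and the antibodies went into the peritoneum every 3 days at 250 µg. The anti-PD-1 group received an antibody to PD-1, a receptor that restrains T cells. The control group is labelled as untreated with that antibody, and the protocol names an IgG2a isotype antibody. The design text of the series speaks instead of LLC cells that survived 7 days after the anti-PD-1 antibody and of untreated LLC cells, so tissue and cells cannot be told apart from the labels. Strain, age and number of mice per RNA sample are not given in the sources used here. Whether each replicate is a different animal is not stated, so the p-values cover the spread among these 6 samples alone, and that spread may be technical.

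DNA replication starts at origins bound by the origin recognition complex (ORC), where CDC6 and CDT1 load the ring-shaped MCM helicase in G1 phase, a step called licensing. In S phase the kinase CDC7 with its activator DBF4, together with cyclin-dependent kinases, turns the loaded ring into an active helicase by joining it to CDC45 and the GINS complex. DNA polymerase alpha with primase then starts each strand, polymerases epsilon and delta extend it, and the clamp PCNA, placed by the RFC clamp loader, holds the polymerase on the template. Many of these genes are transcribed under the control of E2F factors as cells leave quiescence, so their RNA is widely used as a mark of cycling cells in tumours.

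Values are log2 signals, and each difference is the anti-PD-1 mean minus the control mean, given with its standard error (SE) from limma, a linear model fitted to all 21448 rows. "Fell" means an adjusted p under 0.05 after Benjamini-Hochberg adjustment over all rows. The direction rests on the sample labels. In the authors' deposited table the averages named C followed the anti-PD-1 signals, and those named P the control signals, in 99.59% of rows. They followed the letters as named in 6.42% of rows. The 34 replication genes that passed the check described below fit the exchange by construction, since that check uses the exchanged letters. In 0 of these 34 did the averages fit the letters they carry. Should the averages be lettered correctly, each fall below would be a rise.

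The species of the rows is also unsettled. The headers speak of a mouse array, but all 46 members carried human Ensembl transcripts and 0 carried mouse ones, and 5 were placed on chromosomes 20 or 22, which mice lack. The chromosome written in the array identifier matched that of the mouse gene of the same name in RefSeq (GRCm38.p6) for 1 of 46 members. It matched the chromosome that the file itself gives for 11 of the 46. The link between identifiers and gene names, and so between names and signals, is therefore unsettled as well. Gene names below are therefore those of the file, and the build of its positions is unsettled.

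The deposited averages allow a check of each row. A one-step Tukey biweight, a mean that gives little weight to a stray value, was computed from the 3 signals of each group and set against the average of the exchanged letter. A row is called in conflict where an average is off by more than 0.03, an SD by more than 0.02, or the deposited fold change by more than 0.03 (log2) from the deposited averages. This holds for 124 of 21448 rows (0.578%). It holds for 12 of the 46 replication genes (26.1%): all 8 MCM genes, ORC1, LIG1, RPA2 and RPA3. In 4 of them, ORC1, LIG1, MCM2 and MCM8, a deposited average fell beyond its 3 signals, as happened in 0.229% of all rows. The deposited p-value was within a factor of 2 of the limma p from the same signals in all but 117 rows, and 13 replication genes were among the exceptions. They were the 12 in conflict and PCNA. Rows in conflict are counted as called in the totals below, with ORC1 and LIG1 among the members that fell. No conclusion on direction is drawn from such a row taken singly.

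Replication genes were lower in the anti-PD-1 libraries, and none was called higher. Of the 46, 30 fell, where 15.1% of all rows did, and 0 rose, where 14.7% of all rows did. At least 2-fold falls were seen in 20 members, against 3.63% of all rows. The groups did not overlap in 31 members, against 43.5% of all rows. The median difference was -0.87, beside 0.01 over all rows. Among the 34 members without conflict 28 fell, with a median of -1.32, whereas among the 12 in conflict 2 were called lower, with a median of -0.06. The mean signal over the 34 members without conflict was 10.60, 10.68 and 10.72 in the anti-PD-1 libraries, against 11.86, 11.81 and 11.80 in the control libraries. Over the 12 in conflict it was 11.44, 11.37 and 11.41, against 11.57, 11.50 and 11.55. The cycling markers MKI67, CCNB1, AURKA and BUB1 moved with the members: all 4 fell, and their mean per library lay between 12.07 and 12.28 in anti-PD-1 libraries and between 14.07 and 14.10 in control libraries. In such bulk RNA, fewer cycling cells and less RNA per cell cannot be told apart.

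**Figure D1:**
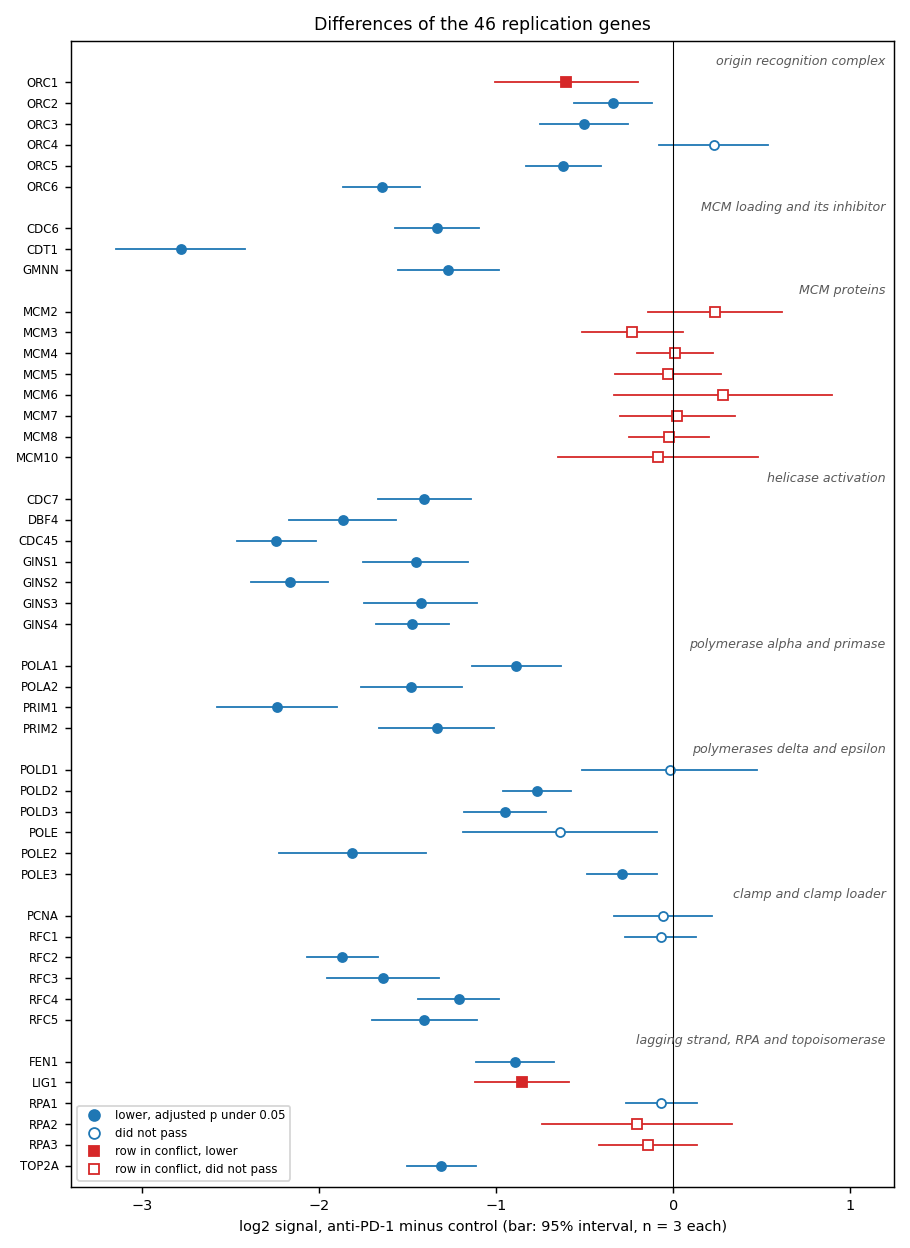
Difference in log2 signal, anti-PD-1 minus control, for each of the 46 genes, ordered by role, with bars for the 95% interval (n = 3 each). Round blue marks are rows without conflict and square red marks rows in conflict; filled marks fell. All 8 MCM genes sit near 0 as open squares, while the 7 genes grouped under helicase activation lie between -2.24 and -1.41.

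Promoter sequences are shown because many members fell together and E2F factors are known to act at such genes. They come from the RefSeq table of mouse promoters (GRCm38.p6), matched by name, and so belong to the mouse genes, whereas the file names human ones. Each window in that table has 250 bases before and 50 after a gene's start. An E2F match was any of TTTCCCGC, TTTGGCGC, TTTGCCGC or TTTCGCGC on either strand, and matches may overlap. Of the 46 members 38 had a window, and 16 of these (42.1%) held an E2F match, against 3.29% of 17492 mouse protein-coding genes. A gene with several windows counted as matched if any window was. The CCAAT box, a common promoter element searched as CCAAT on either strand, was in 60.5% of the members and 42.3% of the protein-coding genes. Among members that fell without conflict its share was 40.9% (9 of 22), below that of the protein-coding genes. It was in 4 of 5 members without conflict that did not pass and in 10 of 11 in conflict. The E2F share was 36.4% (8 of 22) among members that fell without conflict, 1 of 5 among those without conflict that did not pass, and 63.6% (7 of 11) among those in conflict. These shares were not tested against each other, and the set in conflict includes ORC1 and LIG1, both called lower and both with a match. Of the 7 MCM genes with a window 5 held one. A match is a run of letters and not a bound site.

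The 250 bases before the start are printed 5′ to 3′ for 6 genes, with E2F matches in capitals. Rfc3 (chr5:151651209-151651458, minus strand), Gins3 (chr8:95633309-95633558, plus strand) and Cdc6 (chr11:98907901-98908150, plus strand) are members that fell and were picked for holding a match. Their matches begin 10, 41 and 138 bases before the start.
Rfc3: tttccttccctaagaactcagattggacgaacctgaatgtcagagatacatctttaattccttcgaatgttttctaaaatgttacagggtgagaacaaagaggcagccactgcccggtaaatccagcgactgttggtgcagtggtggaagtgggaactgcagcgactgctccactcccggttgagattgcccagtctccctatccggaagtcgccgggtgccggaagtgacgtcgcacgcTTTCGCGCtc
Gins3: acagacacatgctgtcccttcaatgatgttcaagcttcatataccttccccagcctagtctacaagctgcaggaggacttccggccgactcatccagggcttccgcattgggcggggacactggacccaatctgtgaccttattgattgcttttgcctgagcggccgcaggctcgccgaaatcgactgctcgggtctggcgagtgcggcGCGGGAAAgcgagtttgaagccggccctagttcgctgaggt
Cdc6: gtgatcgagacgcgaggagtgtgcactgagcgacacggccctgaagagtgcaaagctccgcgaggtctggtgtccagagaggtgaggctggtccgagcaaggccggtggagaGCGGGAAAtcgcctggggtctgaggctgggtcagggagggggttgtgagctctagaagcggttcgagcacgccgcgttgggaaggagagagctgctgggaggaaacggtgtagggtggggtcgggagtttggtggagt
Mcm7 (chr5:138171884-138172133, minus strand) and Mcm6 (chr1:128359706-128359955, minus strand) are members in conflict, also picked for a match. Rfc1 (chr5:65335640-65335889, minus strand) was picked as a member that did not pass and holds no match. Picked in this way, the printed genes do not show how common matches are among members that fell or did not pass. Mcm6 has 3 matches, which begin 110, 106 and 47 bases before the start, and the first and second of these overlap.
Mcm7: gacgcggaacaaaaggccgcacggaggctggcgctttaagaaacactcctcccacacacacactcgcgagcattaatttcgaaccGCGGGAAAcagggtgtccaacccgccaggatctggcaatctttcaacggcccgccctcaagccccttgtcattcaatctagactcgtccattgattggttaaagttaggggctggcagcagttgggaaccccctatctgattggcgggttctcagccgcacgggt
Mcm6: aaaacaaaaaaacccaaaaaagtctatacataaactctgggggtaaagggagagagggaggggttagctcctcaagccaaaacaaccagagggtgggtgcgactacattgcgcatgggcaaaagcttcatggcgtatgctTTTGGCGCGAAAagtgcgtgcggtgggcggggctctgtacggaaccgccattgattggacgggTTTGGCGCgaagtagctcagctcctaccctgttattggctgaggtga
Rfc1: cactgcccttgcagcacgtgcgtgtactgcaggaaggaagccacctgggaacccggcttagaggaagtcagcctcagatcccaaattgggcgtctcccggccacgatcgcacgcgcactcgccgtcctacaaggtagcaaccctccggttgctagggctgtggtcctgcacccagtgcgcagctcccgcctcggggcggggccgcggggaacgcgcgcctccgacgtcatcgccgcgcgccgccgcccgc

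In the origin recognition complex, 4 of the 5 subunits without conflict fell, and ORC6 fell most. ORC6, the smallest subunit, had signals of 8.87, 8.97 and 8.95 in anti-PD-1 libraries, against 10.64, 10.46 and 10.63 in control libraries. All 3 anti-PD-1 values lay below all 3 control values, and the difference was -1.65 ± 0.09 (adjusted p = 3.68e-05, limma). The core subunits ORC2 (-0.34 ± 0.09), ORC3 (-0.50 ± 0.10) and ORC5 (-0.62 ± 0.09) fell by less, with adjusted p of 0.0313, 0.0108 and 0.00215 in limma. ORC2 no longer passed when any 1 library other than control replicate 2 was left out (adjusted p from 0.0624 to 0.103), or when replicate number was a block (adjusted p = 0.0608). ORC4, another core subunit, had signals of 12.36, 12.32 and 12.39 in anti-PD-1 libraries, against 12.40, 11.99 and 11.99 in control libraries. Its groups overlapped through control replicate 1, and the difference was 0.23 ± 0.13 (adjusted p = 0.248). Without that library it was 0.37 and passed (adjusted p = 0.031, limma), the only member called higher in any fit run here.

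ORC1, the subunit whose level follows the cell cycle, is a row in conflict. Its signals were 10.91, 10.47 and 10.27 in anti-PD-1 libraries, against 11.12, 11.28 and 11.06 in control libraries, a difference of -0.60 ± 0.17 (adjusted p = 0.0362, limma). The authors' deposited table gives an average named C of 9.24, below all 3 anti-PD-1 signals, an average named P of 11.14 and a fold change of -3.73. Signals and averages of ORC1 thus point the same way under the exchange of letters but differ in size. The call was lost without any 1 library except anti-PD-1 replicate 1 (adjusted p from 0.0667 to 0.105).

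The loading factors and their inhibitor all fell, and CDT1 had the largest fall of the 46. CDT1, which brings the MCM ring to ORC and is destroyed in S phase, had signals of 6.88, 7.13 and 6.63 in anti-PD-1 libraries, against 9.52, 9.85 and 9.62 in control libraries. The groups were far apart, with a difference of -2.78 ± 0.15 (adjusted p = 3.54e-05, limma), or 6.88-fold lower. The file places CDT1 on chromosome 16 from 88803213 to 88809258. CDC6, the ATPase that works with CDT1 and whose promoter is printed above, had 11.80, 11.54 and 11.75 in anti-PD-1 libraries, against 12.98, 13.07 and 13.05 in control libraries. GMNN encodes geminin, which binds CDT1 and blocks a second round of licensing, and it had 10.35, 10.38 and 10.19 in anti-PD-1 libraries, against 11.77, 11.41 and 11.55 in control libraries. Neither gene's groups overlapped, with differences of -1.34 ± 0.10 for CDC6 (adjusted p = 0.000121) and -1.27 ± 0.12 for GMNN (adjusted p = 0.00032).

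The MCM genes did not follow their loaders in the signals, and all 8 rows are in conflict, MCM4 by its fold change alone. MCM2 to MCM7 form the ring of the helicase. MCM2 had 11.97, 11.91 and 11.83 in anti-PD-1 libraries, against 11.73, 11.33 and 11.94 in control libraries. MCM3 had 11.88, 11.54 and 11.91 in anti-PD-1 libraries, against 11.97, 12.03 and 12.02 in control libraries. MCM4 had 13.32, 13.15 and 13.30 in anti-PD-1 libraries, against 13.23, 13.20 and 13.31 in control libraries. Of these 3, the groups overlapped for MCM2 and MCM4 and lay apart by a narrow margin for MCM3. MCM5 had 12.94, 13.14 and 12.91 in anti-PD-1 libraries, against 12.81, 13.18 and 13.09 in control libraries. MCM6 had 11.88, 10.91 and 10.93 in anti-PD-1 libraries, against 10.86, 11.06 and 10.95 in control libraries. MCM7 had 14.70, 14.32 and 14.70 in anti-PD-1 libraries, against 14.43, 14.70 and 14.52 in control libraries. The groups overlapped in each of these 3, and for MCM6 a single library, anti-PD-1 replicate 1, stood above the other 5. MCM8, a relative that acts in repair by recombination, had 14.51, 14.64 and 14.57 in anti-PD-1 libraries, against 14.72, 14.50 and 14.57 in control libraries. MCM10, which helps to activate the helicase, had 7.83, 8.18 and 8.78 in anti-PD-1 libraries, against 8.51, 8.16 and 8.38 in control libraries. Both overlapped. None of the 8 passed, with differences between -0.23 and 0.28 and adjusted p from 0.208 to 0.952 in limma. The 95% intervals reached from -0.33 to 0.90 for MCM6 and from -0.20 to 0.22 for MCM4.

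The values deposited beside the MCM signals differ from them in several ways. For MCM6 the authors' deposited table gives an average named C of 11.75 with an SD of 0.11, whereas the 3 anti-PD-1 signals have an SD of 0.55. For MCM10 the same table has an SD named C of 0.10, against 0.48 from the signals. For MCM5 a fold change of -1.37 is deposited beside averages whose difference gives -1.04. For MCM8 the average named C was 14.30, below all 3 anti-PD-1 signals. MCM4 and MCM7 carry the same deposited p of 0.0133 in the authors' deposited table but false discovery rates of 0.06 and 0.3, where Benjamini-Hochberg adjustment of the deposited p-values gives 0.0456 for both. Where these rows came to differ was not tested, and neither set of values is used here for a direction of the MCM genes.

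**Figure D2:**
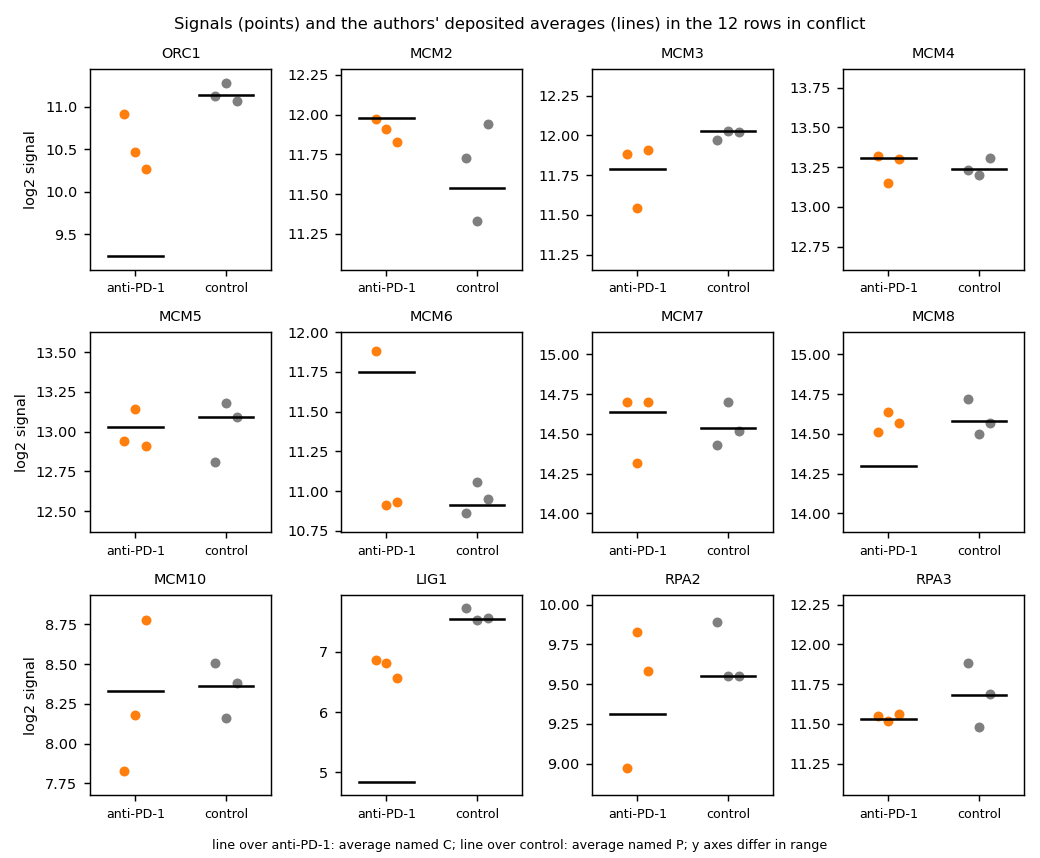
Signals of the 3 anti-PD-1 and 3 control libraries (points) and the authors' deposited averages (lines, average named C over anti-PD-1 and average named P over control) for the 12 genes in conflict, on log2 axes that differ in range. Lines lie below all 3 anti-PD-1 signals for ORC1, LIG1 and MCM8, and above them for MCM2; in MCM6 the line at 11.75 lies near 1 signal of 11.88 and above the other 2.

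All 7 genes grouped here under helicase activation fell, each at least 2-fold. MCM10, which also helps in this step, was grouped with the MCM genes, is in conflict and did not pass. CDC7, the kinase that phosphorylates the MCM ring, had 8.42, 8.58 and 8.62 in anti-PD-1 libraries, against 10.07, 9.78 and 9.99 in control libraries. Its activator DBF4 had 10.98, 11.22 and 11.37 in anti-PD-1 libraries, against 13.19, 13.03 and 12.95 in control libraries. CDC45, a subunit of the active helicase, had 9.38, 9.49 and 9.62 in anti-PD-1 libraries, against 11.77, 11.72 and 11.73 in control libraries. None of these groups overlapped, and the differences were -1.41 ± 0.11 for CDC7, -1.87 ± 0.13 for DBF4 and -2.24 ± 0.09 for CDC45 (adjusted p of 0.000152, 8.2e-05 and 1.64e-05, limma). A second row named DBF4 had low signals, between 4.47 and 6.58, and a difference of -0.67 ± 0.48 (adjusted p = 0.359).

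The 4 subunits of GINS, the complex that joins CDC45 and MCM, fell together. GINS1 had 10.43, 10.60 and 10.79 in anti-PD-1 libraries, against 12.21, 12.02 and 11.95 in control libraries. GINS2 had 9.43, 9.59 and 9.56 in anti-PD-1 libraries, against 11.61, 11.70 and 11.77 in control libraries. These groups lay apart by more than 1 log2 unit in both genes. GINS3 had 10.98, 11.08 and 11.24 in anti-PD-1 libraries, against 12.58, 12.71 and 12.29 in control libraries. GINS4 had 8.41, 8.52 and 8.41 in anti-PD-1 libraries, against 9.97, 9.84 and 9.95 in control libraries. The differences were -1.45 ± 0.12, -2.17 ± 0.09, -1.43 ± 0.13 and -1.47 ± 0.09 for GINS1 to GINS4, with adjusted p from 1.71e-05 to 0.000326 in limma. GINS2 was the subunit with the largest fall. The other 2 rows named GINS3 had signals between 4.20 and 5.20 and did not pass.

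Polymerase alpha and primase, which lay down the starting RNA and DNA of each fragment, fell in all 4 subunits. PRIM1, the catalytic subunit of primase, had 9.64, 10.07 and 10.09 in anti-PD-1 libraries, against 12.29, 12.12 and 12.11 in control libraries. PRIM2, the large subunit of primase, had 10.60, 10.37 and 10.84 in anti-PD-1 libraries, against 12.04, 11.95 and 11.83 in control libraries. POLA2, the accessory subunit of the polymerase, had 9.42, 9.08 and 9.15 in anti-PD-1 libraries, against 10.82, 10.64 and 10.63 in control libraries. In all 3 the anti-PD-1 values lay below the control values by about 1 log2 unit or more. The differences were -2.24 ± 0.14 for PRIM1, -1.34 ± 0.14 for PRIM2 and -1.48 ± 0.12 for POLA2 (adjusted p of 6.12e-05, 0.000472 and 0.000166, limma). POLA1, the catalytic subunit, fell by less than 2-fold (-0.89 ± 0.11, adjusted p = 0.000971). A second row named PRIM2 also fell (-0.77 ± 0.18, adjusted p = 0.0167).

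Among the members that are subunits of polymerases delta and epsilon, which copy most of the genome, 4 accessory subunits fell and neither catalytic subunit passed. POLE2, the second subunit of polymerase epsilon, had 8.28, 8.47 and 8.84 in anti-PD-1 libraries, against 10.58, 10.29 and 10.16 in control libraries. Its groups did not overlap, with a difference of -1.81 ± 0.17 (adjusted p = 0.000359, limma). POLD3 (-0.95 ± 0.10) and POLD2 (-0.77 ± 0.08), accessory subunits of polymerase delta, fell too, with adjusted p of 0.000495 and 0.000535. POLD4, a further accessory subunit of polymerase delta that is not among the 46, did not pass (-0.25 ± 0.12, adjusted p = 0.181). POLE4, an accessory subunit of polymerase epsilon that is also not among the 46, fell (-0.53 ± 0.11, adjusted p = 0.0111, limma). POLE3, a small histone-fold subunit of polymerase epsilon, fell by little (-0.29 ± 0.08, adjusted p = 0.0401), and it no longer passed after quantile normalization (adjusted p = 0.0659), when any 1 library was left out (adjusted p from 0.0614 to 0.112) or when replicate number was a block (adjusted p = 0.104). The catalytic subunit POLE differed by -0.64 ± 0.23 (adjusted p = 0.0809). It passed with a replicate block (adjusted p = 0.011), with a trended robust prior (adjusted p = 0.0229) and without control replicate 1 (adjusted p = 0.035). The catalytic subunit POLD1 differed by -0.02 ± 0.21 (adjusted p = 0.959), with a 95% interval from -0.51 to 0.47. Its mean signals of 6.21 in anti-PD-1 and 6.23 in control libraries lay below the median of all rows, 7.74. That catalytic and accessory subunits differ in response was not tested.

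The 4 small subunits of the RFC clamp loader fell, while the large subunit and the clamp did not pass. RFC2 had 11.01, 11.07 and 11.06 in anti-PD-1 libraries, against 12.99, 12.92 and 12.84 in control libraries. RFC3, whose promoter is printed above, had 9.50, 9.99 and 9.76 in anti-PD-1 libraries, against 11.43, 11.37 and 11.37 in control libraries. Both lay more than 1 log2 unit apart between the groups. RFC4 had 12.75, 12.83 and 12.92 in anti-PD-1 libraries, against 14.15, 13.94 and 14.05 in control libraries. RFC5 had 10.97, 11.07 and 11.32 in anti-PD-1 libraries, against 12.40, 12.67 and 12.51 in control libraries. The differences ran from -1.87 ± 0.08 for RFC2 to -1.21 ± 0.10 for RFC4, with adjusted p from 1.95e-05 to 0.000249 in limma. A second row named RFC3, with signals between 6.21 and 6.67, did not pass (-0.11 ± 0.14). RFC1, the large subunit, had 12.33, 12.44 and 12.47 in anti-PD-1 libraries, against 12.49, 12.44 and 12.52 in control libraries. Its groups overlapped, and the difference of -0.07 ± 0.08 (adjusted p = 0.604) had a 95% interval from -0.27 to 0.13. PCNA, the sliding clamp, had 14.59, 14.40 and 14.61 in anti-PD-1 libraries, against 14.72, 14.41 and 14.64 in control libraries. Here too the groups overlapped, with a difference of -0.06 ± 0.12 (adjusted p = 0.77) and a 95% interval from -0.33 to 0.22. For PCNA the averages and SDs of the authors' deposited table follow from the signals, but its deposited p is 0.0432, where limma gives 0.64 from the same signals. Its deposited false discovery rate is 0.06, where Benjamini-Hochberg adjustment of the deposited p-values gives 0.113. Its deposited fold change of -1.04 stands beside averages that give -1.02, a gap within the tolerance of 0.03 (log2).

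**Figure D3:**
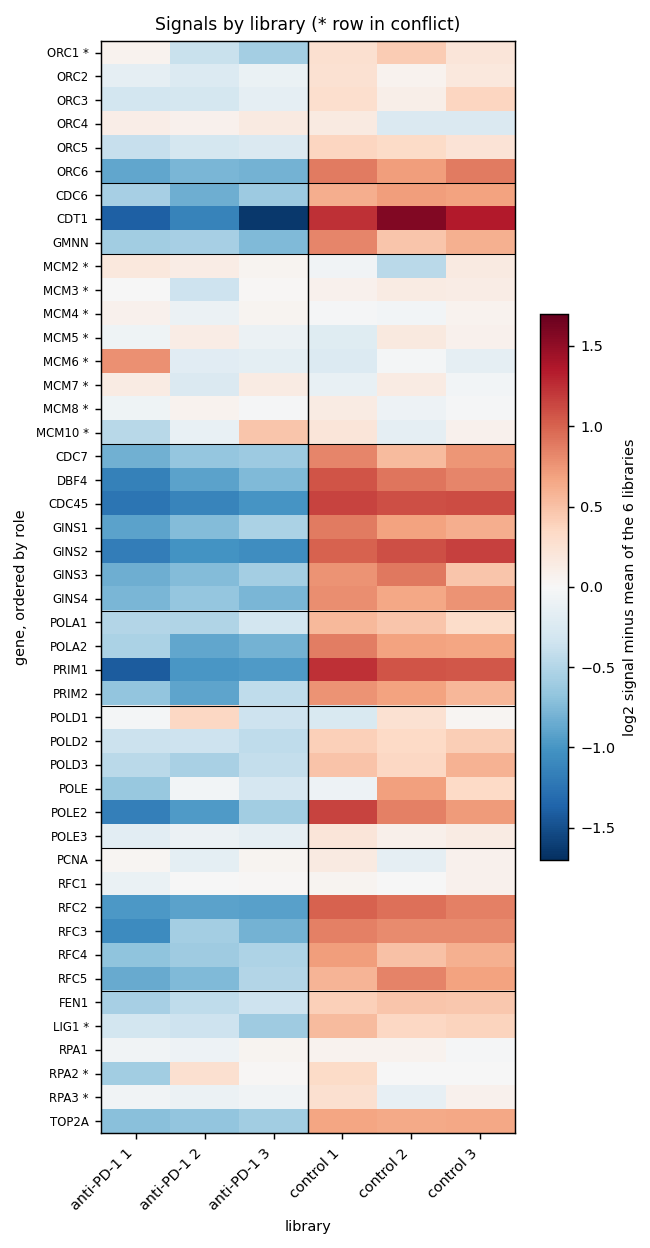
Log2 signal of each of the 46 genes in each library, as the difference from the gene's mean over the 6 libraries (blue lower, red higher), with anti-PD-1 libraries on the left, lines between roles and an asterisk on rows in conflict. CDT1 has the widest gap between groups, and the MCM block, PCNA, RFC1 and RPA1 are pale in all libraries except for single cells such as MCM6 in anti-PD-1 replicate 1.

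Of the genes that finish the lagging strand, coat single strands and untangle the copies, TOP2A and FEN1 fell. TOP2A, the topoisomerase that parts sister chromatids and a target of anthracycline drugs, had 13.24, 13.29 and 13.37 in anti-PD-1 libraries, against 14.62, 14.60 and 14.61 in control libraries. Replicates lay within 0.13 of each other, and the difference was -1.31 ± 0.08 (adjusted p = 5.67e-05, limma). FEN1, the nuclease that trims flaps between fragments, fell (-0.89 ± 0.09, adjusted p = 0.000496). RPA1, the large subunit of the single-strand binding protein RPA, differed by -0.07 ± 0.08 (adjusted p = 0.62), with a 95% interval from -0.27 to 0.13. Both other RPA subunits are rows in conflict and did not pass. RPA2 had 8.97, 9.83 and 9.58 in anti-PD-1 libraries, against 9.89, 9.55 and 9.55 in control libraries. RPA3 had 11.55, 11.52 and 11.56 in anti-PD-1 libraries, against 11.88, 11.48 and 11.69 in control libraries. The groups overlapped in both. LIG1, the ligase that seals the fragments, is in conflict as well, with 6.86, 6.82 and 6.57 in anti-PD-1 libraries, against 7.72, 7.53 and 7.56 in control libraries. Its signals did not overlap and differed by -0.85 ± 0.11 (adjusted p = 0.0015, limma). The authors' deposited table gives LIG1 an average named C of 4.84, below all 3 anti-PD-1 signals, with an SD that follows from them and a fold change of -6.54.

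Of 40 further replication fork, chromatin assembly and origin firing genes 36 had a row with 1 symbol. Of these 28 fell and 0 rose, where 15.1% of all rows were called lower and 14.7% higher, with a median of -0.83. The largest falls were in ESCO2, a cohesin acetyltransferase (-2.04 ± 0.16), TIMELESS, a fork protection factor (-1.84 ± 0.21), CHAF1B, a histone chaperone of the fork (-1.79 ± 0.11), and CLSPN, the checkpoint adaptor claspin (-1.71 ± 0.12), with adjusted p from 5.28e-05 to 0.00083 in limma. All 4 RNase H genes, which remove RNA from DNA, are rows in conflict. Their differences lay between -0.28 and -0.01, and none passed. Without rows in conflict 28 of 32 fell, with a median of -1.11. These further genes and the G1 to S regulators below were chosen with earlier results of these data known. Their counts are therefore not an independent check on the members.

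Of 40 regulators of the G1 to S transition, all with a row and 0 in conflict, 24 fell, where 15.1% of all rows did, with a median of -0.62. The 7 that rose make up a share near the 14.7% of all rows called higher, and 5 to 6 rose when any 1 library was left out. The largest falls were in E2F8, a repressor that is itself an E2F target (-2.47 ± 0.09), DTL, which directs the destruction of CDT1 (-2.31 ± 0.11), E2F1, an activator of replication genes (-2.07 ± 0.14), and the phosphatase CDC25A (-1.89 ± 0.15). Their adjusted p ran from 1.18e-05 to 0.000156 in limma. The largest rises were in CUL4B, a ubiquitin ligase scaffold (0.72 ± 0.08), CCND2, a D-type cyclin (0.71 ± 0.21), CDKN1B, the cyclin-dependent kinase inhibitor p27 (0.70 ± 0.11), and CDK6 (0.65 ± 0.15). Their adjusted p ran from 0.00083 to 0.0447. Of the 8 E2F genes 5 fell, among them E2F4 (-1.21), E2F2 (-0.93) and E2F7 (-0.63). E2F6 (-0.38), E2F5 (-0.11) and E2F3 (-0.02) did not pass.

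**Figure D4:**
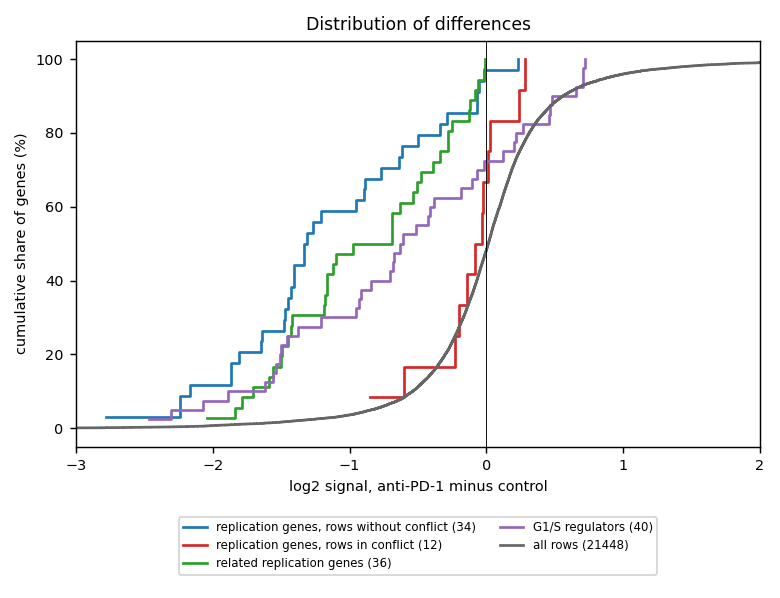
Cumulative share of genes (%) against the log2 difference, anti-PD-1 minus control, for replication genes without conflict (34), those in conflict (12), related replication genes (36), G1/S regulators (40) and all rows (21448); the number of each is in the legend. The curve of the 34 genes lies to the left of all rows, with a median of -1.32 beside 0.01, while the curve of the 12 in conflict has a median of -0.06.

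Library medians lay between 7.71 and 7.77, a narrow range that nevertheless separated by group. They were 7.77, 7.77 and 7.76 in anti-PD-1 libraries, against 7.715, 7.73 and 7.71 in control libraries. Markers of other cells were also measured, and their part in the results was not tested. Epithelial markers were bright in both groups, with library means from 15.36 to 15.41 in anti-PD-1 and from 15.40 to 15.44 in control libraries, where EPCAM fell (-0.60) and KRT8 rose (0.30). Of 4 T cell markers 3 lay below the first quartile of all rows, and CD4, which fell (-0.46), was one of these. The marker above it, CD3E, did not pass, and library means were 4.42 to 4.49 in anti-PD-1 and 4.34 to 4.69 in control libraries. Of 4 macrophage markers CD68 fell (-1.64) and CD14 rose (1.19), with library means from 8.44 to 8.63 in anti-PD-1 and from 8.61 to 8.82 in control libraries. Of 4 fibroblast markers COL1A2 rose (3.15), with library means from 8.96 to 9.17 in anti-PD-1 and from 7.81 to 8.29 in control libraries. None of 4 endothelial markers passed, with library means from 5.17 to 5.37 in anti-PD-1 and from 4.96 to 5.17 in control libraries.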

How the data were processed

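Values of 6 arrays, 3 per group, were used, with groups and replicate numbers taken from the sample titles. The authors deposited log2 signals per gene, which the file headers ascribe to SST-RMA. Transcriptome Analysis Console is named in the submitters' processing notes, without a version. Beside the signals the authors' table has log2 averages, their SDs, a deposited p-value, a deposited false discovery rate and a deposited signed fold change, treated as a score. Workbook and series value table held the same signals (largest difference 0). Of 22206 identifiers 758, the unbroken end, had no values. No scanner intensity was used. The number of arrays limits the precision.

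All rows were fitted with limma 3.58.1 (R 4.3.3; lmFit, then eBayes, with group as the sole term and 2-sided tests), with Benjamini-Hochberg adjustment over 21448 rows at 0.05. The fit was tested on simulated data. Signals by library are given for members that fell at least 2-fold, rose or were in conflict, with some others, and from the further lists the 4 largest differences each way. Members, lists and tests were chosen with earlier results of these data known, and the fold change check and the printed promoters after seeing the values. Alternatives were other normalizations, filters, priors, weights, thresholds, a replicate block, removal of each library and omission of rows in conflict.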

Additional observations from a re-analysis of the deposited data

How the results depend on the processing

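Of 171 counts and medians recomputed under the alternatives, 164 kept to within 1.5 times the reported value, or, for a median, to within the SD between replicates. Some of the 164 could not change: the median and the count of groups without overlap do not depend on a threshold. A count of 0 in both was also taken as kept. The median over the members was -1.31 without rows in conflict by average or SD (35 members). It was -1.32 when the fold change was added to that check (34 members), an omission chosen after seeing the data. The check does not use the size of the difference between groups. The 12 members that it left out had a median of -0.06, and why they lay near 0 was not tested. Members called lower numbered 26 at an adjusted threshold of 0.01 and 31 with a trended robust prior, the extremes outside the removal of libraries. At that threshold and with a further 1.5-fold limit, the G1/S regulators called higher were 3 and 4, and rows past the threshold 3870 and 3705, fewer by construction. Without each library in turn, 27 to 28 members were lower and 0 to 1 higher. Of the 30 members that fell, 27 kept call and direction in every fit that held them at 0.05 with no fold limit, all but ORC1, ORC2 and POLE3; ORC1 was also lost with ordinary least squares. ORC3 (-0.50, adjusted p = 0.0108) was lost, beside ORC2 and POLE3, both at the 0.01 threshold and with the 1.5-fold limit. No called member changed sign. Members that did not pass changed sign in some fits: MCM7 (-0.025) and MCM4 (-0.038) after median centring, and MCM4 (-0.0025) with array weights. Without single libraries the differences ran from -0.04 to 0.15 for MCM7, -0.022 to 0.063 for MCM4, -0.037 to 0.45 for MCM6, -0.35 to 0.13 for MCM10, -0.072 to 0.038 for MCM8, -0.14 to 0.047 for MCM5, -0.39 to 0.042 for RPA2, -0.15 to 0.01 for PCNA and -0.20 to 0.15 for POLD1. The causes were not tested. Libraries with the same replicate number did not deviate together, with correlations of 0.0128, -0.0238 and 0.0134, so the numbers were not taken as pairs. With a replicate block 29 members, 22 related genes and 23 G1/S regulators were lower, 0, 0 and 6 were higher, and 5363 rows passed; the median stayed at -0.87. The series value table gave the same values because it holds the same signals.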
